A study of Homo sapiens with 4 samples.

Results

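The genes described here are 10 components of transforming growth factor beta (TGF-beta) signalling, sorted by their place in the pathway: the ligand TGFB1, the receptors TGFBR1 and TGFBR2, the effector SMAD3, and the inhibitors SMAD6, SMAD7, SKI, SKIL, TGIF1 and SMURF1. They were followed through a list of N6-methyladenosine (m6A) sites predicted in C643 cells, a line derived from an anaplastic thyroid carcinoma. A site was assigned to a gene when it lay on the same strand within an exon of that gene's longest protein-coding transcript in GENCODE. Of 18789 listed sites, 39 lay in exons of these genes, and they fell in 5 of the 10. The other 5 genes, TGFBR1, TGFBR2, SMAD6, SKIL and SMURF1, held none.

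The sites came from miCLIP2. In this method UV light fixes an antibody against m6A onto fragmented RNA, and reverse transcription stops beside it, so that read ends mark single nucleotides. The cells were untreated wild-type C643, with 3 biological replicates, the first of them sequenced as 2 technical libraries, giving 4 libraries in 1 group. There was no control group for this cell line, and the 4 libraries stood behind a single pooled list. Each site carried a prediction score between 0 and 1 from m6Aboost, a machine learning model trained by the authors to separate m6A from background antibody binding, and no read count, so the depth behind a site was unknown.

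TGF-beta is secreted in a latent form and, once freed, brings together a type II receptor (TGFBR2) and a type I receptor (TGFBR1), both serine/threonine kinases. The active type I receptor phosphorylates SMAD3 and its relative SMAD2, which join SMAD4 and enter the nucleus to control transcription. The signal is held back by the inhibitory SMADs (SMAD6 and SMAD7), by the ubiquitin ligase SMURF1 that SMAD7 recruits to receptors, and by the nuclear corepressors SKI, SKIL and TGIF1. In epithelial cells, thyroid cells included, the pathway restrains proliferation and drives epithelial-to-mesenchymal transition. m6A is placed mainly within the DRACH motif (D is A, G or T; R is A or G; H is A, C or T, with T standing for U) and is known to affect the stability and translation of mRNAs.

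The sequences around the sites are shown because the bases next to the listed A were among the inputs of the prediction, beside transcript region, relative signal strength and C-to-T changes. Each is 21 nt of the transcript strand from GRCh38, written with T for U, with the pentamer centred on the listed A in capitals. Shown are all 5 sites of the TGFB1 5′ UTR, the highest- and lowest-scoring site of each gene, and the 4 sites outside DRACH.
TGFB1 site 1 (5′ UTR): gaggaaaaAAACTtttgagac
TGFB1 site 2 (5′ UTR): aacttttgAGACTtttccgtt
TGFB1 site 3 (5′ UTR): aggaggcaGGACTtggggacc
TGFB1 site 4 (5′ UTR, lowest): cccattccGGACCagccctcg
TGFB1 site 5 (5′ UTR): tcccgcaaAGACTtttcccca
TGFB1 site 6 (coding, highest): cggccgcgGGACTatccacct
SMAD3 site 3 (3′ UTR, highest): gaaaattgGAACTctactcaa
SMAD3 site 8 (3′ UTR, not DRACH): ctcagaacATACTgattggga
SMAD3 site 9 (3′ UTR, not DRACH): gaacatacTGATTgggaggtg
SMAD3 site 15 (3′ UTR, lowest): gtaaaaacAGACAgctctgag
SMAD7 site 1 (coding, highest): tttgcctcGGACAgctcaatt
SMAD7 site 2 (coding, lowest): ctcaattcGGACAacaagagt
SKI site 1 (coding, not DRACH): gcgagaccGTACTggaaggcg
SKI site 7 (3′ UTR, highest): tatatttaGAACTgcactttg
SKI site 10 (3′ UTR, lowest, not DRACH): ccaggtacAGACGacctcggg
TGIF1 site 1 (coding, lowest): ggcatcaaAAACTtcatgcca
TGIF1 site 2 (coding, highest): taccactgTGACTgcattgaa

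Sites were thus found in the ligand, in the effector and in some inhibitors, but in neither receptor. TGFB1 held 7 sites, SMAD3 16, SKI 12, and SMAD7 and TGIF1 2 each. The 6 inhibitors together held 16 sites in 3 genes. Across the transcriptome, 18.6% of 19500 protein-coding genes held at least 1 listed exonic site. A site can be listed only where a transcript gave enough reads, and the expression level of these genes was not among the data used here. A gene without methylation and a gene with too few reads therefore cannot be told apart.

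**Figure D1:**
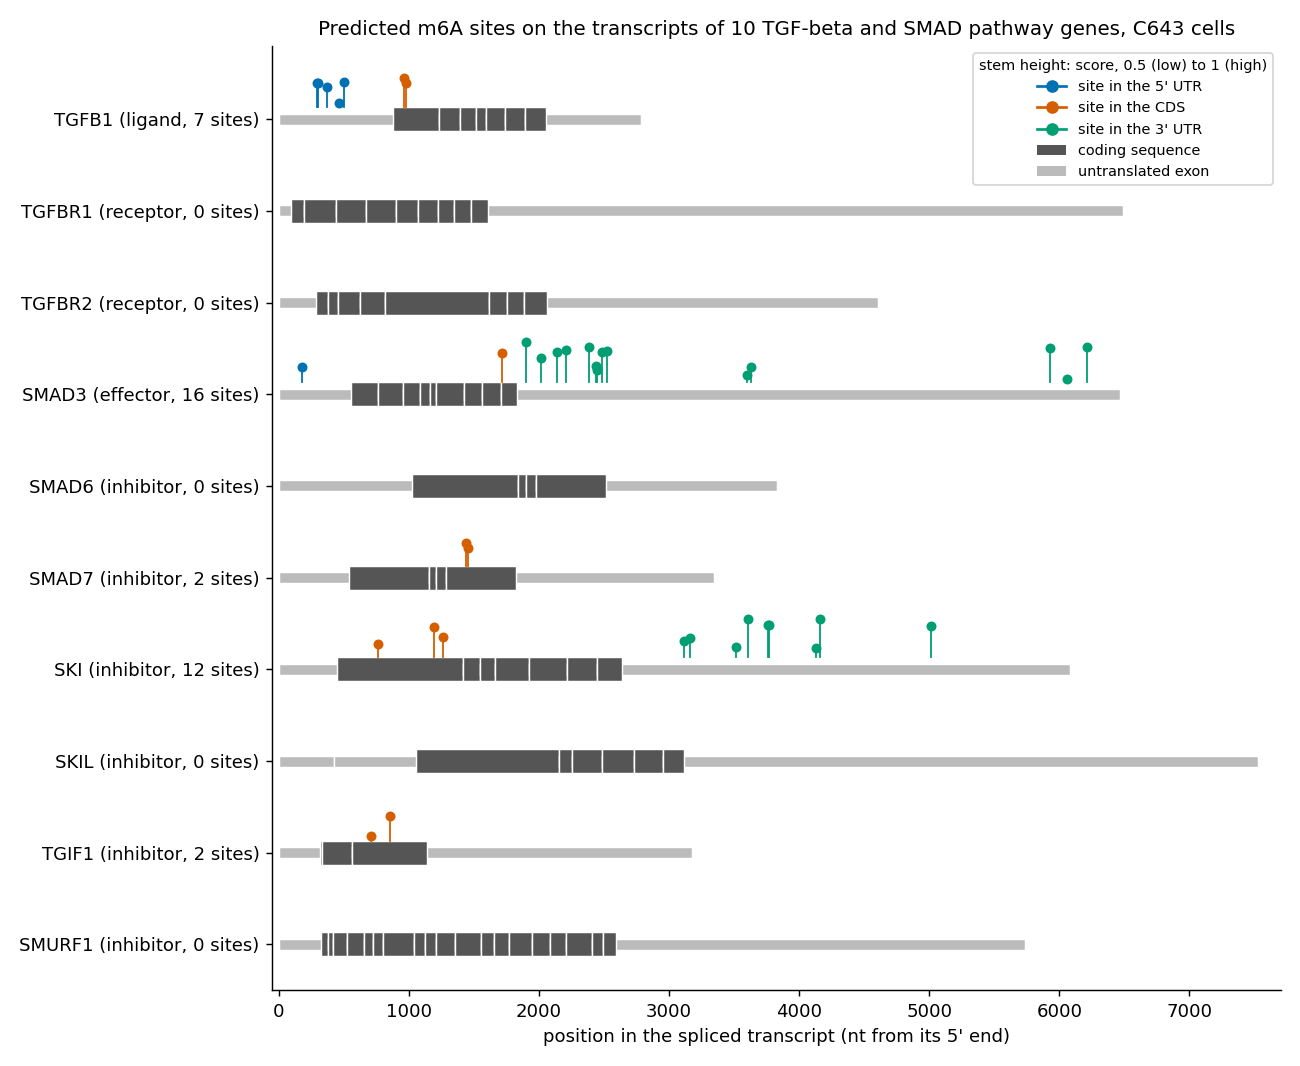
Spliced transcripts of the 10 genes drawn to scale in nucleotides from the 5′ end, with coding sequence as tall dark boxes, untranslated sequence as thin grey boxes and exon junctions as white lines. Each stem is a listed m6A site, coloured by region, with its height giving the prediction score. TGFB1 sites lie at the 5′ end, SMAD3 and SKI sites mostly in the 3′ UTR, and 5 genes carry none.

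To allow for transcript length and base composition, the listed sites were set against all DRACH motifs in the exons. In the 5 genes with sites, 35 of 349 DRACH motifs were listed (10.0%, 95% Wilson interval 7.30 to 13.6), while in all coding transcripts with at least 1 site the share was 7.33%. Over all 10 genes, 35 of 871 motifs were listed (4.02%, 2.90 to 5.54). The motif counts are not independent measurements, and these intervals cover counting error only. In TGFB1, 7 of 46 motifs were listed (15.2%, 7.57 to 28.2), in SKI 10 of 79 (12.7%, 7.02 to 21.8) and in SMAD3 14 of 128 (10.9%, 6.63 to 17.5). These 3 intervals overlap each other, so the genes could not be ordered by their share. SMAD7 had 2 of 41 (4.88%, 1.35 to 16.1) and TGIF1 2 of 55 (3.64%, 1.00 to 12.3). Among the 3623 coding genes with a site, TGFB1 stood at the 81.3rd percentile of this share (53.3 to 96.3 at the bounds of its interval), SKI at the 74.4th (50.6 to 91.3), SMAD3 at the 67.8th (48.2 to 86.1), SMAD7 at the 37.1st (7.78 to 83.5) and TGIF1 at the 27.4th (4.75 to 73.0). With only sites scoring at least 0.7, SMAD7 moved to the 22.1st and TGIF1 to the 14.3rd.

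The genes without sites had 44 to 151 exonic DRACH motifs each, and the genes with sites 41 to 128. SKIL had 151 exonic DRACH motifs, the most of the 10 genes, and 0 of them were listed, which allows a share of up to 1.99%. TGFBR1 had 0 of 123 (up to 2.44%), SMURF1 0 of 109 (up to 2.75%), TGFBR2 0 of 95 (up to 3.16%) and SMAD6 0 of 44 (up to 6.82%). These limits are 3 counts over the motifs. The Wilson upper bound, drawn in the plot of shares by gene, is wider, and for SMAD6 it was 8.03%, above the 7.33% of all coding transcripts with a site. That 7.33% leaves out every gene without a site, so it does not show whether these genes had fewer sites than other genes. The 5 genes together had 522 DRACH motifs, 20 of them GGACT, the pentamer most often listed in this dataset. In transcripts with at least 1 site, 25.9% of GGACT motifs were listed. In the 5 genes with sites, 8 of 19 GGACT motifs were (42.1%, 23.1 to 63.7).

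**Figure D2:**
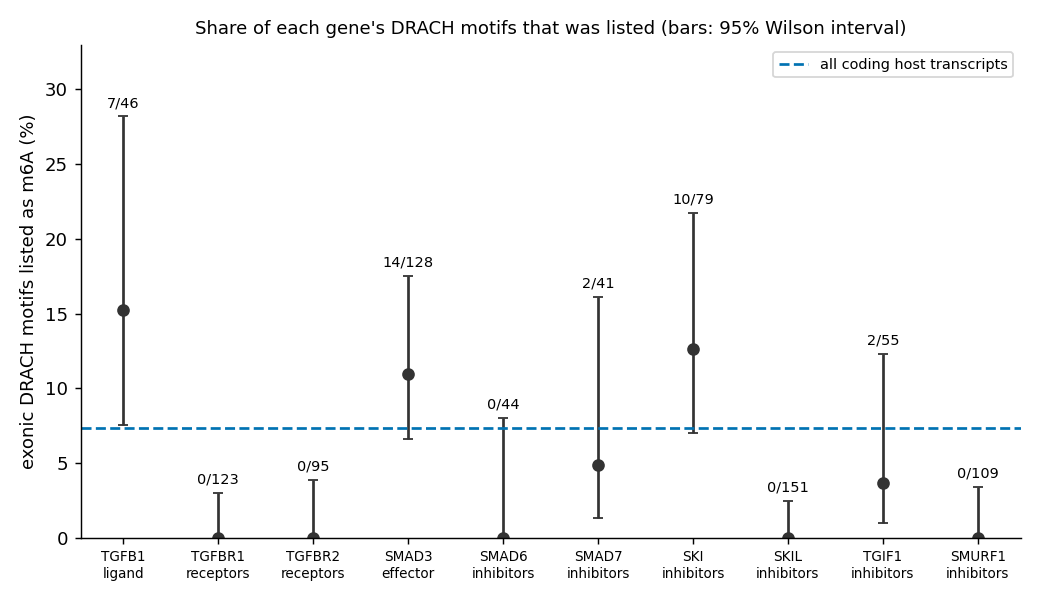
Percentage of exonic DRACH motifs listed as m6A in each gene, with 95% Wilson intervals as bars, listed and total motifs above them, and the share over all coding transcripts with a site (7.33%) as a dashed line. TGFB1, SKI and SMAD3 have the highest values, and the upper bounds of TGFBR1, TGFBR2, SKIL and SMURF1 lie under the dashed line, while that of SMAD6 lies above it. The dashed line leaves out every gene without a site. For such genes the side on which the bound falls depends only on the number of motifs.

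TGFB1, the secreted ligand, lies on the minus strand of chromosome 19, from 41330323 to 41353922 (GRCh38). All of its 7 sites lay in exon 1, which is 1233 nt long and holds the 5′ UTR of 878 nt and the start of the coding sequence. Of these, 5 were in the 5′ UTR, at transcript positions 290, 299, 371, 464 and 503, with scores of 0.779, 0.772, 0.719, 0.530 and 0.785. The remaining pair was coding, at positions 965 and 981, with scores of 0.833 and 0.769. The 3′ UTR of 729 nt had 14 DRACH motifs, of which 0 were listed, and the last exon of 888 nt held 15 motifs and no site. TGFB1 was the only one of the 5 genes with most of its sites upstream of the start codon.

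A 5′ UTR position was uncommon in the list as a whole. Only 437 of 17540 sites in coding transcripts (2.49%) were in a 5′ UTR, against 5 of 7 in TGFB1 (71.4%, 35.9 to 91.8). Of the DRACH motifs in 5′ UTRs, 3.17% were listed over all coding transcripts with a site, and 5 of 15 in TGFB1 (33.3%, 15.2 to 58.3). The 7 sites share 1 exon and are not independent, so both intervals cover counting error only. A 5′ UTR site was present in 262 genes, and 7 of these had more such sites than TGFB1. The median score of all 5′ UTR sites was 0.623, and 4 of the 5 TGFB1 sites were above it. The 5′ UTR of this length was carried by 1 of the 3 well-supported TGFB1 transcripts in the annotation.

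Several TGFB1 sites shared a sequence beyond the pentamer. Sites 1, 2 and 5 were at the A of ACTTTT on the transcript strand, as the windows above show, and the first 2 of them were 9 nt apart. ACTTTT was present at 155 of the 17540 sites in coding transcripts (0.884%) and at none of the sites in SMAD3, SKI, SMAD7 or TGIF1. This likeness was noticed in the sequences and then counted. AGACT was the pentamer of 3 of the 7 sites, GGACT of 2, and AAACT and GGACC of 1 each.

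TGFBR1, the type I receptor kinase, lies on chromosome 9 (plus strand, 99105113 to 99154192), and TGFBR2, the type II receptor that activates it, on chromosome 3 (plus strand, 30606601 to 30694142). Neither had a site in any annotated exon or intron. Their transcripts of 6492 and 4605 nt end in exons of 5013 and 2723 nt, and the 3′ UTRs held 87 and 52 DRACH motifs. Together the receptors had 139 unlisted motifs in the 3′ UTR and 76 in the coding sequence.

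SMAD3, which carries the signal to the nucleus, lies on chromosome 15 (plus strand, 67065602 to 67195169) and held the most sites, 16. By this count it stood at the 97.4th percentile of genes with a site, and by sites per kb of transcript at the 76.3rd. Of the 16, 1 was in the 5′ UTR, 1 was coding and 14 were in the 3′ UTR of 4633 nt. In this 3′ UTR, 12 of 98 DRACH motifs were listed (12.2%, 7.15 to 20.2), against 9.05% over the 3′ UTRs of all coding transcripts with a site. The sites were unevenly spread. With the 3′ UTR cut into 3 equal stretches, nucleotides 1 to 1544 held 9 sites and 31 DRACH motifs, 7 of them listed. Nucleotides 1545 to 3088 held 2 sites and 35 motifs (2 listed), and 3089 to 4633 held 3 sites and 32 motifs (3 listed).

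Of the 3′ UTR sites, 9 lay between 72 and 691 nt downstream of the stop codon, 2 followed at 1771 and 1804 nt, and after a gap of 2297 nt the last 3 lay within 534 nt of the transcript's 3′ end. The highest score among the 10 genes, 0.968, was at SMAD3 site 3 (position 67190606), a GAACT located 72 nt after the stop codon. The lowest, 0.514, was at site 15 (67194761), an AGACA. The gene's scores had a median of 0.841. The coding site (67190420), with a score of 0.840, was 8 nt into exon 9 and was shared by all 10 well-supported transcripts, while the 5 most distal sites were in 4 of the 10. The 5′ UTR site was in 2 of the 10.

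A further pair of SMAD3 sites did not match DRACH. Site 8 (67191147) was at ATACT with a score of 0.677, and site 9 (67191151), 4 nt downstream, was at TGATT with 0.628. TGATT was the pentamer of 17 of the 17540 sites in coding transcripts (0.0969%). The remaining 14 sites of SMAD3 were at AGACT (4 sites) and at GGACT and GGACA (3 each), with 1 each at AAACT and AGACA and at GAACA and GAACT.

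SKI, a corepressor that binds SMAD complexes on DNA, lies on chromosome 1 (plus strand, 2228319 to 2310213) and held 12 sites. Each of the 12 was in only 1 of the 5 well-supported SKI transcripts. Exon 1 (1417 nt) held 3 of the sites, all coding, and 2 of its 6 DRACH motifs were listed. Exon 7 (3637 nt) held 9, all in the 3′ UTR, and 8 of its 59 DRACH motifs were listed. In the 3′ UTR 8 of 56 DRACH motifs were listed (14.3%, 7.42 to 25.7). Cut in the same way, its nucleotides 1 to 1149 held 6 sites and 24 DRACH motifs, 6 of them listed. Nucleotides 1150 to 2298 held 2 sites and 10 motifs (1 listed), and 2299 to 3448 held 1 site and 22 motifs (1 listed). Most sites were thus in the stretch nearest the stop codon, as in SMAD3. Unlike SMAD3, SKI had no site near the stop codon, the nearest being 482 nt downstream of it.

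The median score in SKI was 0.784. The highest, 0.950, was at site 7 (2307733), again a GAACT, and the lowest, 0.598, at site 10 (2308257), an AGACG, which is outside DRACH. Site 1 (2229078), at GTACT with a score of 0.637, was the other such site. Sites 8 and 9, at AAACT and GAACT, were 5 nt apart and had scores of 0.869 and 0.873. GGACT was the pentamer of 3 of the 12 sites. SKIL, the close relative of SKI on chromosome 3 (plus strand, 170357342 to 170396835), had none, and it too has 7 exons, the last of 4577 nt.

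SMAD7, the inhibitory SMAD that blocks the type I receptor, lies on chromosome 18 (minus strand, 48919853 to 48950965) and held 2 coding sites in exon 4, the last. Both were at GGACA and they were 14 nt apart, at 48921756 with a score of 0.757 and at 48921742 with 0.691. All 4 well-supported SMAD7 transcripts included them. None of the 26 DRACH motifs in the SMAD7 3′ UTR was listed. SMAD6, the other inhibitory SMAD, on chromosome 15 (plus strand, 66702236 to 66782849), held no site in its exons of 1840 and 1853 nt, which carried all 44 of its DRACH motifs.

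TGIF1, a homeodomain corepressor of SMAD target genes, lies on chromosome 18 (plus strand, 3450172 to 3459978) and also held 2 coding sites, both in exon 3, its last. The first (3457513) was at AAACT with a score of 0.539, and the second (3457656) at TGACT with 0.780. Of the 16 well-supported TGIF1 transcripts, 12 included the first and 8 the second. None of the 31 DRACH motifs in its 3′ UTR was listed. SMURF1, the ubiquitin ligase, on chromosome 7 (minus strand, 99027441 to 99144100), had 19 exons and no site.

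**Figure D3:**
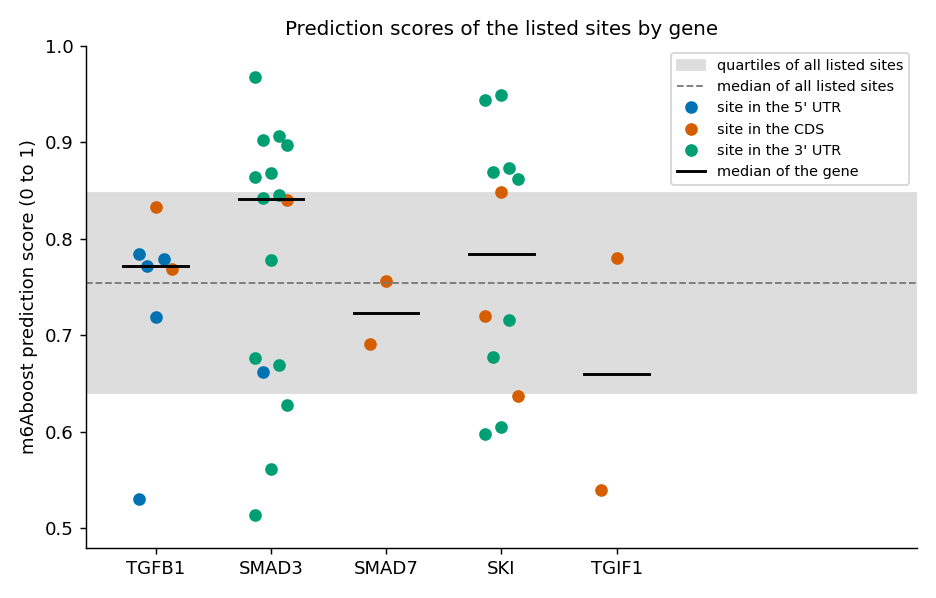
m6Aboost prediction score of each listed site in the 5 genes that held sites, coloured by region, with the median of each gene as a black line and the median and quartiles of all 18789 listed sites as a dashed line and grey band. The 3′ UTR sites of SMAD3 and SKI span almost the whole range, from 0.514 to 0.968, and no TGFB1, SMAD7 or TGIF1 site lies above the band.

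The scores of the 39 sites were close to those of the list. Their median was 0.779 (quartiles 0.673 and 0.863), against 0.754 for all sites (0.640 and 0.847). A score of at least 0.7 was given to 26 of the 39, and to 11811 of all 18789 sites. By class, the median was 0.772 for the ligand (7 sites), 0.841 for the effector (16) and 0.738 for the inhibitors (16). The 95% intervals of these medians, 0.530 to 0.833, 0.662 to 0.897 and 0.637 to 0.869, overlapped. They treat the sites as independent, but the ligand and the effector are a single gene each and SKI held 12 of the 16 inhibitor sites. The classes therefore cannot be compared by these scores. The 23 sites in 3′ UTRs had a median of 0.846 and the 10 coding sites 0.763, and the list as a whole had the same order, with 0.801 and 0.707. Sequence and transcript region are both inputs of the model, so a score is not a measurement independent of them.

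By region, the 39 sites comprised 6 in 5′ UTRs (15.4%, 7.25 to 29.7), 10 in coding sequence (25.6%, 14.6 to 41.1) and 23 in 3′ UTRs (59.0%, 43.4 to 72.9). Over all coding transcripts the shares were 2.49%, 42.1% and 55.4%. In a 3′ UTR lay 0 of 7 ligand sites, 14 of 16 effector sites and 9 of 16 inhibitor sites, the last all in SKI. The ligand and the effector are 1 gene each, so this is a description of genes and not of classes. Per motif the 3′ UTRs of TGFB1 (0 of 14 listed, 0 to 21.5%) and SMAD3 (12 of 98, 7.15 to 20.2%) had overlapping intervals. Of the coding DRACH motifs in the genes with sites, 9 of 97 were listed (9.28%, 4.96 to 16.7), against 6.29% over all coding transcripts with a site.

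Few sites were near the stop codon, where m6A is known to be enriched in mRNAs. Within 200 nt of it lay 3 of the 39 sites (7.69%, 2.65 to 20.3), all in SMAD3, at -114, 72 and 185 nt. Over all coding transcripts the share was 33.3%. The 5 genes with sites had 36 DRACH motifs in this window, and 3 of them were listed (8.33%, 2.87 to 21.8). Over all coding transcripts with a site the share was 19.3%, which lies within this interval. Per motif, the share near the stop codon therefore could not be told from that of all coding transcripts with a site. TGFB1, SKI, SMAD7 and TGIF1 had 4, 5, 4 and 13 motifs in the window and no site.

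In all 5 genes the sites lay in an end exon, but not in the same one. TGFB1 had all 7 of its sites in the first exon, and SMAD7 and TGIF1 had both of theirs in the last. Every one of the 39 sites was in the first exon (11 sites) or the last exon (28 sites) of its transcript (100%, 91.0 to 100), against 81.3% over all coding transcripts. Most motifs were there too, since 296 of the 349 DRACH motifs of these genes (84.8%) were in a first or last exon. The 39 sites fell in 7 exons and are not independent, so the interval covers counting error only. The 20 internal exons of these genes, between 51 and 293 nt long, had 53 DRACH motifs and no site. The exons that held sites were 759 to 4757 nt long, and the median length of the exon around a site was 3637 nt, against 1463 nt over all coding transcripts. Most of the sites lay in exon 9 of SMAD3 (4757 nt, 15 sites) and exon 7 of SKI (3637 nt, 9 sites), which set this median. With each of the 7 exons counted once, the median was 2058 nt. Of the 10 coding sites, 1 was within 100 nt of an exon junction (10.0%, 1.79 to 40.4), the SMAD3 site in exon 9, against 28.8% of coding sites in the list. Per motif, 1 of 63 coding DRACH motifs in this window was listed (1.59%, 0.281 to 8.46), near the 2.43% over all coding transcripts with a site.

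Exons were divided at 400 nt, a boundary chosen with the positions of the sites known. In the 5 genes with sites, the 21 shorter exons held 56 DRACH motifs and no site, and the 9 longer ones held 293 motifs and all 39 sites. Over all coding transcripts with a site, 2.19% of DRACH motifs in shorter exons and 10.5% of those in longer exons were listed, and 88.9% of sites were in the longer ones. The 5 genes without sites had 9 long exons too, with 389 DRACH motifs. In the genes with sites, exon 7 of TGFB1 (888 nt, 15 motifs) and exon 1 of SMAD7 (1154 nt, 7 motifs) were the long exons without a site.

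**Figure D4:**
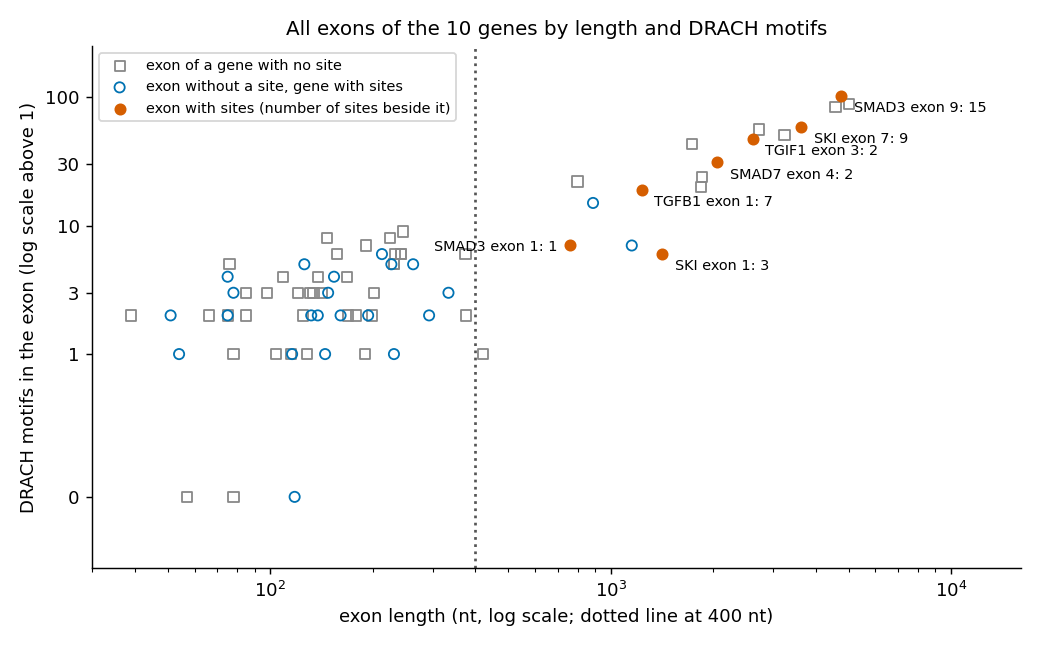
Each point is an exon of the 10 genes, placed by its length (log scale) and its number of DRACH motifs (log scale above 1). Filled points are the 7 exons with sites, labelled with their number of sites, open circles the other exons of the same genes, and squares the exons of the 5 genes without sites. All filled points lie at 759 nt or longer, and squares of similar length and motif number lie among them.

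DRACH was present at 35 of the 39 sites (89.7%, 76.4 to 95.9), against 88.6% in coding transcripts, and GGACT at 8 (20.5%), against 21.6%. AGACT was as frequent, at 8 sites (20.5%), of which SMAD3 held 4, TGFB1 3 and SKI 1, against 9.99% in coding transcripts. GGACA followed with 6 sites (15.4%, against 13.4%) and AAACT with 4 (10.3%, against 3.85%). Others were below their share in coding transcripts: GAACT and GGACC with 3 sites each (7.69%, against 9.98% and 10.2%) and TGACT with 1 (2.56%, against 6.96%). Of 34 pairs of neighbouring sites in a gene, 11 were within 50 nt (32.4%), against 32.3% in coding transcripts.

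Among 37 further genes of the pathway, 7 held sites, 42 in all. The genes with sites were 18.9% of the 37, near the 18.6% of all protein-coding genes. The most were in ENG, the co-receptor endoglin (14 sites, all in the 3′ UTR). PMEPA1, an inhibitor that binds SMADs, followed with 7, and the target CCN2 and the latent TGF-beta binding protein LTBP3 had 6 each. BMP4, LTBP4 and TGFBI had 3 each. By role, sites were found in 3 of 8 ligands and storage proteins, in 1 of 10 receptors and co-receptors, in 0 of 6 effectors, in 1 of 10 inhibitors and regulators, and in 2 of 3 targets. Of the 42 sites 14 were coding, 28 were in 3′ UTRs and 0 in 5′ UTRs, so that TGFB1 and SMAD3 were the only ones of the 10 and the 37 genes with a 5′ UTR site. The nearest relatives of the 10 genes, TGFB2, TGFB3, SMAD2, SMAD4, SMURF2 and TGIF2, had no site.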

How the data were processed

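miCLIP2 was performed on poly(A)+ RNA of untreated C643 cells. Per the labels and the study's methods, the authors trimmed and demultiplexed the reads, aligned them to GRCh38.p12 with STAR (2.7.3a), kept uniquely mapped reads, removed PCR duplicates by unique molecular identifiers with UMI-tools (1.0.0), set reads with C-to-T changes apart and called peaks with PureCLIP in each replicate, keeping those in at least 2 replicates. The deposited list pools the replicates. The score column, as deposited by the authors, is a fraction between 0 and 1 that m6Aboost assigned to each candidate site, and no listed score was below 0.500. Read counts per site were not used here.

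Sites were placed on GENCODE release 44 (the study used an earlier release on the same assembly), with 1 transcript a gene, the longest well-supported protein-coding one. It was the Ensembl canonical transcript in 7 of the 10 genes. All 18789 sites lay at an A. Within the spans of the 10 genes, 10 sites on the opposite strand were left out. DRACH motifs were searched on the transcript strand. Well-supported transcripts were those of transcript support level 3 or better and annotation level 2 or better. Shares carry Wilson intervals at 95%, medians binomial order-statistic intervals, and a count of 0 the limit of 3 counts. With 1 pooled list there was no test. Named from the 37 further genes were the 5 with most sites, the nearest relatives and, beyond this rule, the remaining 2 with sites. A further gene of the list is not reported here. Genes and lists were chosen with earlier results of these data known. Placement was tested on simulated sites (Python 3.11.15, pysam 0.24.0, scipy 1.17.1).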

Additional observations from a re-analysis of the deposited data

How the results depend on the processing

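Of 67 alternative values for 23 results, 58 stayed within the interval of the reported value (counts within 1.5 times). Some of these could not move. The Ensembl canonical transcript was already the one used in every gene with sites, and a share of 0 stays 0 when sites are removed by score. The count of 58 is therefore not a measure of robustness. Leaving out SMAD3, the gene with most sites, gave 23 sites, a 3′ UTR share of 39.1%, a share of listed DRACH motifs over all the genes of 2.83% (4.02% with SMAD3), and 0% of sites near the stop codon and 0% of coding sites near a junction. With sites scoring at least 0.7, 100% were at DRACH. A window of 100 nt around the stop codon held 2.56% of sites and one of 400 nt 20.5%, and a junction window of 200 nt held 50% of coding sites. These shifts follow from the windows, the threshold and the gene left out. Exon boundaries of 200 and 800 nt, added after the data were seen, left the share of sites in longer exons at 100% and 97.4%. Replicates could not be left out in turn because the list pools them, and the number of reads behind a site, which limits what could be listed in a gene of low expression, was unknown. No paired analysis was possible because there was 1 group.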

Other observations

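More 5′ UTR sites than the 5 of TGFB1 were listed in 7 genes: STK11 with 9 of its 16 sites, SNX33 with 8 of 18, ST3GAL2 with 7 of 19, HCFC1 with 7 of 15, C6orf47 with 7 of 14, WDR24 with 6 of 14 and CDKN2C, which encodes a cell cycle inhibitor, with 6 of 9. U2AF2, SLC35A4, LRFN3, GPAT4 and CES2 had 5 each, as TGFB1 did. In CES2 these were 5 of 6 sites. These genes were picked by their counts, and no explanation was tested.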
